A study of Homo sapiens with 20 samples.

Results

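HIF1A binding was examined at 10 genes of the circadian clock and its BHLHE repressors: BHLHE40, BHLHE41, PER1, PER2, CRY1, CRY2, NR1D1, NR1D2, CLOCK and DBP. These are 10 of the 20176 protein-coding genes of the annotation. They were taken by name and not by a signal threshold, but with earlier results of these data known. A peak was assigned to a gene when its centre lay between 10 kb upstream of the gene start and 10 kb past the gene end (GENCODE v44 gene records on GRCh37). By this rule 31 of the 26484 peaks in 8 peak lists lay at these genes, 27 of them in hypoxia and 4 in normoxia. The 27 hypoxia peaks formed 15 regions when overlapping peaks of different cell lines were joined.

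Chromatin immunoprecipitation with sequencing (ChIP-seq) was carried out with a HIF1A antibody (Novus Biologicals) in 4 established human cancer cell lines, the colon lines HCT116 (colorectal carcinoma) and RKO (colon carcinoma) and the lung lines A549 (adenocarcinoma) and H460 (large cell carcinoma). Each line was kept in normoxia or placed in 1% O2 for 24 h, with 2 replicates per line and condition (16 ChIP libraries), and each line had 1 input library from normoxic cells. Replicates were merged before peak calling, so each line and condition is represented by 1 peak list. Signal is the normalized tag count, the number of tags in a peak per 10000000 tags of the merged library. Peak width differed between lists, from 118 bp in normoxic H460 to 190 bp in normoxic HCT116, and the counts were not scaled to it. No replicate error exists for a single value. The 95% intervals given here are exact Poisson intervals of the tags and cover counting error only. The merged libraries held 41242090 to 81528303 tags, and the lists held 287 to 2092 peaks in normoxia and 3877 to 9171 in hypoxia. The fold over input that a peak had to reach was set by line (14 for H460, 13 for A549, 7 for HCT116 and 6 for RKO), so that a call in one line is not the same call in another. The labels describe the RKO input as coming from A549 and the A549 input as coming from RKO, and name HCT116 as the source of every input. Titles and cell line fields were followed here. Folds over input in these lines, and the peak calls that required such a fold, carry that doubt.

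The circadian clock is a transcriptional feedback loop. CLOCK pairs with BMAL1, both of them bHLH-PAS proteins, and the pair binds E-boxes and activates the PER and CRY genes, whose products return to inhibit it. The nuclear receptors NR1D1 and NR1D2 (REV-ERB alpha and beta) repress BMAL1, DBP is a clock-driven output activator, and BHLHE40 and BHLHE41 (DEC1 and DEC2) are bHLH repressors that compete at E-boxes. HIF1A belongs to the same bHLH-PAS family and binds the hypoxia response element, whose core (ACGTG or GCGTG) overlaps the E-box CACGTG in sequence.

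The sequences under the BHLHE peaks called in 3 or 4 lines are shown first, as the most widely shared of the 2 paralogues. They are the forward strand of GRCh37, 5′ to 3′, with every ACGTG or GCGTG on either strand in capitals, so that CACGT and CACGC are the same cores on the reverse strand and CACGTG in capitals is an E-box. The 3 regions are the BHLHE40 promoter region (chr3:5020842-5021034), the BHLHE40 downstream region (chr3:5028647-5028836) and the BHLHE41 upstream region (chr12:26278759-26278972).
BHLHE40 promoter: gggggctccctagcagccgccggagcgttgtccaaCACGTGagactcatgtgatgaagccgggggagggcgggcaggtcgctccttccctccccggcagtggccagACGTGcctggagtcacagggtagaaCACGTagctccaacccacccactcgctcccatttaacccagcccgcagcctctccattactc
BHLHE40 downstream: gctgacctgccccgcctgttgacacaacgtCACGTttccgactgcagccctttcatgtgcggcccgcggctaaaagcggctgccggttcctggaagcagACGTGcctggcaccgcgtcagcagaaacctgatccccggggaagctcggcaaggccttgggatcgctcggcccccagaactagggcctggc
BHLHE41 upstream: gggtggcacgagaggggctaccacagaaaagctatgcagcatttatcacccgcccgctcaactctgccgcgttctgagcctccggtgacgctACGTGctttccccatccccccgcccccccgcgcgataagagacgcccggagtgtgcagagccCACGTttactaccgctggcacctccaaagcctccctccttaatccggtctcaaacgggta

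Only the promoter region of the BHLHE40 pair held an E-box (1 CACGTG), beside 2 cores outside it. The downstream region held 2 cores and no E-box. The BHLHE41 upstream region likewise held 2 cores and no E-box.

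BHLHE40 was the only member with a peak in all 4 hypoxia lists, and it carried 8 of the 27 hypoxia peaks. The 2 regions called in every line both lay at this gene (chr3:5021122-5027008, plus strand). The promoter region was centred 168 to 206 bp upstream of the gene start, within an intron of the antisense lncRNA BHLHE40-AS1. The downstream region was centred 7599 to 7634 bp past the gene start and 1713 to 1748 bp past the gene end, in intergenic sequence, and BHLHE40 was still its nearest protein-coding gene start.

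At the BHLHE40 promoter region the normalized tag count in hypoxia was highest in H460 at 42.1 (95% interval 36.5 to 48.2), followed by A549 at 26.2 (21.8 to 31.3), HCT116 at 17.0 (14.3 to 20.1) and RKO at 13.8 (11.1 to 16.9). At the downstream region the same order held, with H460 at 67.7 (60.7 to 75.4), A549 at 61.8 (54.9 to 69.4), HCT116 at 31.5 (27.8 to 35.6) and RKO at 11.4 (8.95 to 14.2). Both lung lines stood above both colon lines at each region, and HCT116 and RKO overlapped in their counting intervals at the promoter but not downstream. This order was that of most strong sites: both lung lines were above both colon lines at 81.9% of the 232 regions called in all 4 hypoxia lists.

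To set lines side by side, each value was divided by the line's median over those 232 regions (27.0 for H460, 23.0 for A549, 11.8 for HCT116 and 9.80 for RKO). On this scale the BHLHE40 promoter region was at 1.56 in H460, 1.14 in A549, 1.44 in HCT116 and 1.41 in RKO, a mean of 1.39 ± 0.177 (SD, n = 4 lines). The colon and lung lines then overlapped, and the spread between lines fell from 3.05-fold to 1.37-fold. The downstream region was at 2.51, 2.69, 2.67 and 1.16 in the same order of lines, a mean of 2.26 ± 0.733 (SD, n = 4 lines). HCT116, A549 and H460 lay close together there and RKO lay well under them, and at neither region were both lung lines above both colon lines. On this scale both lung lines were above both colon lines at 15.5% of the 232 regions. RKO was the lowest of the 4 lines at 56 of the 232 regions (24.1%).

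**Figure D1:**
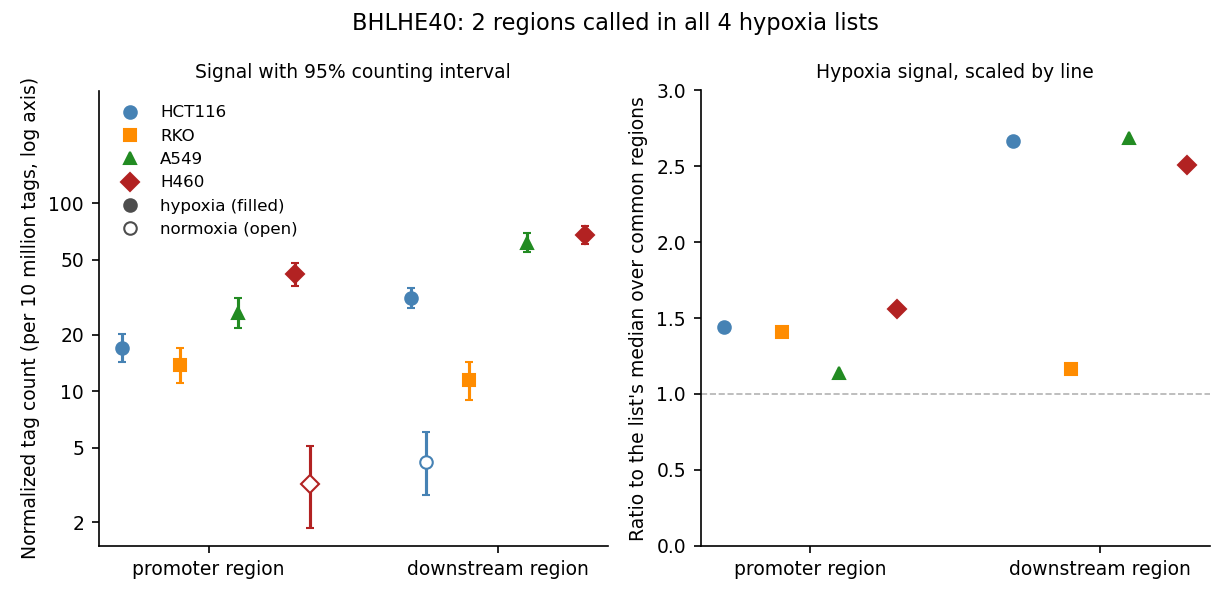
HIF1A signal at the 2 BHLHE40 regions. Left, normalized tag count per 10000000 tags on a log axis, 1 point per line and list with the 95% counting interval; filled symbols are hypoxia and open symbols the 2 normoxia lists with a peak there. Right, the hypoxia values divided by the line's median over the 232 regions called in all 4 hypoxia lists, marked as a dashed line at 1; RKO at 1.16 stands under the other lines (2.51 to 2.69) at the downstream region.

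Within a line, the downstream region had 2.36 times the signal of the promoter region in A549 (95% counting interval 1.90 to 2.94), while HCT116 had 1.85 times (1.50 to 2.29) and H460 1.61 times (1.35 to 1.92). In RKO the ratio was 0.826 (0.601 to 1.13), an interval that includes equal signal. Averaged over the 4 lines, the log2 ratio came to 0.63 ± 0.65 (SD), positive in 3 of 4, with p = 0.25 in a two-sided exact sign-flip test chosen after the values were seen; the smallest p that 4 lines allow is 0.125. The higher signal downstream is thus given for the merged libraries of 3 lines and was not called over lines.

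BHLHE40 was also the only member with overlapping peaks in both conditions of a line. In H460 the promoter region had 17 tags in normoxia, a normalized tag count of 3.19 (1.86 to 5.11), against 42.1 in hypoxia. In HCT116 the downstream region had 29 tags in normoxia, 4.19 (2.81 to 6.02), against 31.5 in hypoxia. The log2 ratio of hypoxia over normoxia was 3.72 in H460 (95% interval 3.01 to 4.53) and 2.91 in HCT116 (2.35 to 3.52). Both passed an exact conditional binomial test with Benjamini-Hochberg adjustment over all peaks called in both conditions of the line (adjusted p = 1.02e-45 in H460 and 1.98e-38 in HCT116). Such calls were common: 82.2% of the 45 peaks called in both conditions of H460 and 56.8% of the 37 in HCT116 were higher in hypoxia by the same rule. The BHLHE40 peaks ranked 6 of 45 and 4 of 37 by ratio. These ratios are of tags per peak, and peak width differed between the lists. It was 146 bp in hypoxia and 118 bp in normoxia for H460, and 148 and 190 bp for HCT116. Per bp of peak width, the log2 ratios were 3.42 in H460 and 3.27 in HCT116. Each test sets 1 merged library against another, without replicates of the conditions. In RKO and A549 neither BHLHE40 region was called in normoxia, where the lowest normalized tag counts listed were 2.44 and 2.91, so a weaker signal there would not have been listed.

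The 3 other regions called in all 4 lists closest to the downstream region in normalized tag count over the lines were chosen by Euclidean distance of log2 values. They lay 72 bp inside WDR45B (distance 0.46), at a site whose nearest gene start is ITGB3 (0.66) and by the start of FAM162A (0.68). At the WDR45B region the normalized tag counts were 68.1 in H460, 44.9 in A549, 32.5 in HCT116 and 11.2 in RKO. RKO was at 13 at the ITGB3 region and 17.5 at the FAM162A region. The RKO values entered the distance, so their likeness is a description of the choice.

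BHLHE41 (chr12:26272963-26277970, minus strand), the paralogue of BHLHE40 and likewise an E-box repressor, had 5 hypoxia peaks in 3 lines and none in A549 or in normoxia. The region upstream of its start, at 869 to 929 bp, was called in H460 with a normalized tag count of 5.86 (3.93 to 8.42), in RKO with 3.74 (2.42 to 5.52) and in HCT116 with 3.56 (2.38 to 5.11). These 3 intervals overlap. All 3 values were far under those of BHLHE40, and on the scale of the common regions they were 0.217, 0.382 and 0.302. The region lies in an intron of SSPN, which covers the BHLHE41 promoter on the opposite strand.

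The strongest BHLHE41 peaks were each called in 1 line. H460 had a peak of 8.29 (5.95 to 11.2) centred 57 bp upstream of the gene start, and RKO had one of 8.52 (6.45 to 11.0) 5519 bp past the gene end. The RKO peak ranked 304 of 9171 in its list, and its nearest protein-coding gene start was that of SSPN, 7.48 kb away, not that of BHLHE41. Its sequence (chr12:26267364-26267524) held 2 E-boxes and is shown because it was the most core-rich member peak. Of the H460 peak, which touches the BHLHE41 UTR, only the E-box and its flanks are shown (chr12:26278003-26278028).
BHLHE41 past the gene end: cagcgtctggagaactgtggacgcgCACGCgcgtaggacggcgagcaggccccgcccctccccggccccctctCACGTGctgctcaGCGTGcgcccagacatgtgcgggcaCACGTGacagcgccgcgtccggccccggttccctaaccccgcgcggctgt
BHLHE41 start site: gcacccagctCACGTGcggaacgtac

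PER1 and PER2, whose proteins form the inhibitory complex with the CRY proteins, each had hypoxia peaks in 2 lines, all with lower normalized tag counts than those of BHLHE40. PER1 (chr17:8043790-8059824, minus strand) had 3 hypoxia peaks in 2 lines, no 2 of which overlapped. HCT116 had a peak in a PER1 intron 5210 bp into the gene, at 4.29 (2.99 to 5.97). RKO had a peak at the gene start, at 4.04 (2.66 to 5.87), and one 8142 bp into the gene, at 2.39 (1.37 to 3.88). The last rested on 16 tags, was at percentile 1.59 of its list and held no core. A549 and H460 had no peak in the PER1 window. Their nearest hypoxia peaks were 17.0 kb from the PER1 gene body, at 29.4 in A549 and 23.9 in H460. The nearest gene start to both was that of TMEM107. The RKO peak at the PER1 start held an E-box just upstream of that start, shown with its flanks (chr17:8059847-8059872).
PER1 start: gggagagataCACGTGagagaggggc

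PER2 (chr2:239152685-239198743, minus strand) had 1 region, called in RKO at 7.62 (5.68 to 10.0) and in A549 at 6.01 (4.00 to 8.69). The counting intervals overlap, but the RKO value ranked 390 of 9171 peaks and the A549 value 1557 of 5408. The region lay 1275 to 1313 bp inside the gene and within 37 bp of the start of another annotated PER2 transcript. It spans a PER2 UTR, so only its 2 cores are shown (chr2:239197371-239197395 and chr2:239197434-239197458). HCT116 and H460 had no PER2 peak.
PER2 first core: cccacagctgCACGTatcccctcag
PER2 second core: atagtggaaaACGTGaccgcgcgcg

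The CRY genes were nearly free of called peaks. CRY1 (chr12:107385142-107487327, minus strand), a repressor of CLOCK and BMAL1, had 1 peak in A549 at 3.65 (2.13 to 5.84), 4145 bp past the gene end. That peak was centred 59 bp upstream of the start of MTERF2, a mitochondrial transcription termination factor, so it was at CRY1 only by the window. CRY2 (chr11:45868669-45904799, plus strand) had no peak in any of the 8 lists. The nearest hypoxia peak to the CRY2 gene body was 11.7 kb away in RKO and at 2.69, with 35.9 kb in HCT116, 236 kb in H460 and 416 kb in A549.

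NR1D1 (chr17:38249046-38256842, minus strand), the heme-binding nuclear receptor that represses BMAL1, carried the highest normalized tag count after BHLHE40. Its intron region, 1450 to 1460 bp past the gene start, was at 18.9 in A549 (15.2 to 23.3), 12.3 in H460 (9.43 to 15.8) and 8.59 in HCT116 (6.69 to 10.8), and no peak was called in RKO. A549 was above HCT116 beyond counting error, and H460 overlapped each of them. On the scale of the common regions the values were 0.822, 0.456 and 0.728, so A549 stayed the highest and HCT116 moved above H460. The RKO peak past the end of BHLHE41 was above all 3 on that scale, at 0.870. H460 alone had a peak at the NR1D1 promoter, 208 bp upstream of the gene start, at 9.91 (7.33 to 13.1). NR1D2 (chr3:23986777-24022108, plus strand), the paralogue of NR1D1, had a peak in RKO alone, at 5.23 (3.64 to 7.28), 617 bp inside the gene in introns of both NR1D2 and NKIRAS1, the gene on the opposite strand. The NR1D1 and NR1D2 windows thus had peaks in different lines. The NR1D2 peak (chr3:23987314-23987474) is shown because it held 2 E-boxes.
NR1D2 intron: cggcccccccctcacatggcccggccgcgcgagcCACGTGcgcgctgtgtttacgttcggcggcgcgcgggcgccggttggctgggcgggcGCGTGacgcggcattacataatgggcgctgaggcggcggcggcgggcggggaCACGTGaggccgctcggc

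CLOCK (chr4:56294070-56413076, minus strand), the activator of the loop and the longest member at 119 kb, had no hypoxia peak in any line. Its 1 peak was in normoxic H460, at 2.63 (1.44 to 4.41) on 14 tags, over coding sequence 111395 bp into the gene. The peak held no core. The nearest hypoxia peaks to the CLOCK gene body were 32.3 kb away in HCT116 and in H460, at 2.82 and 4.45, and the nearest gene start to both was that of TMEM165.

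DBP (chr19:49133287-49140636, minus strand), an output transcription factor driven by CLOCK and BMAL1 through E-boxes, had hypoxia peaks in its window in both colon lines and in neither lung line. Hypoxic H460 had a peak of 7.89 just outside the window, 10.6 kb from the DBP gene body, and the nearest gene start to it was that of SPHK2. The nearest hypoxia peak in A549 was 64.7 kb away. The region 2774 to 2812 bp into the gene was at 5.89 in HCT116 (4.34 to 7.81) and 4.19 in RKO (2.78 to 6.05), with overlapping intervals. It lay within 41 bp of the start of another annotated DBP transcript and held 1 E-box, shown with its flanks because the region spans a DBP UTR (chr19:49137808-49137833). A second HCT116 peak, at 5.76 (4.24 to 7.67), was centred at the gene end in the UTR of the overlapping gene SPHK2 and held no core. The normoxic RKO list had a peak of 3.33 (1.86 to 5.49) on 15 tags close to it, 7193 bp into the gene, that did not overlap it. Reads there cannot be divided between DBP and SPHK2.
DBP second transcript start: agggccgagtCACGTGctgacgcctg

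**Figure D2:**
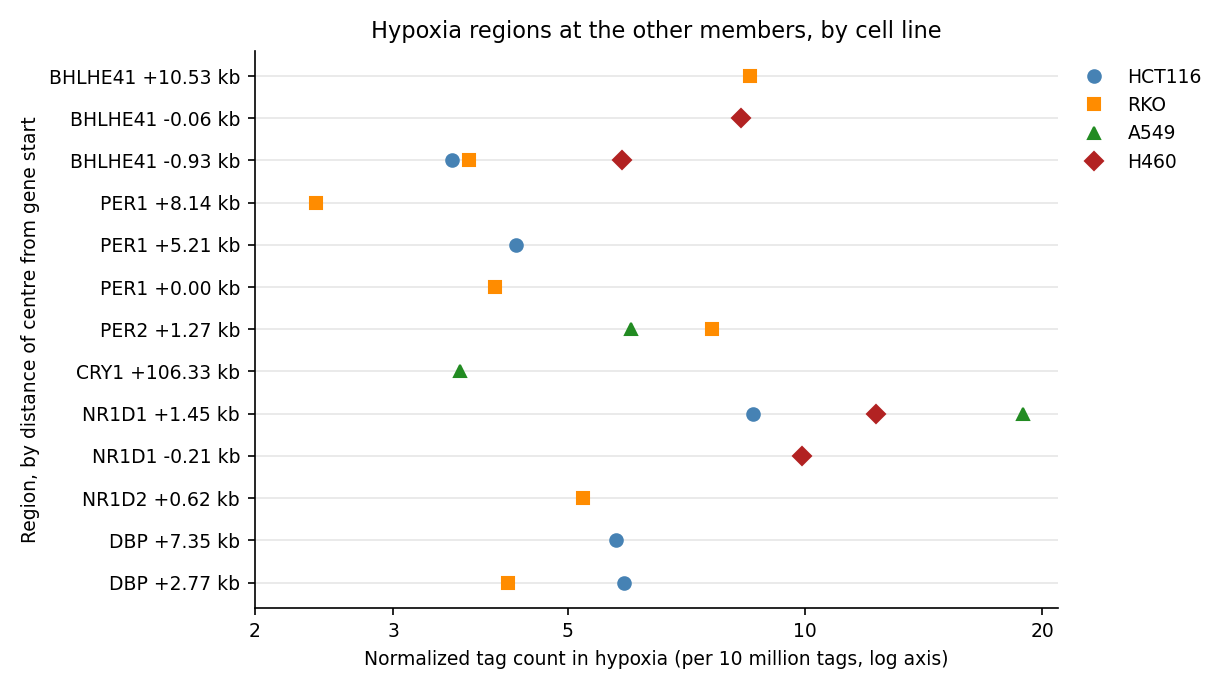
Normalized tag count per 10000000 tags in hypoxia (log axis) of the 13 regions at members other than BHLHE40, 1 symbol per line in which the region was called; regions are named by gene and distance of their centre from the gene start. The NR1D1 intron region in A549 (18.9) is the highest, and the RKO peak inside PER1 (2.39) the lowest.

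**Figure D3:**
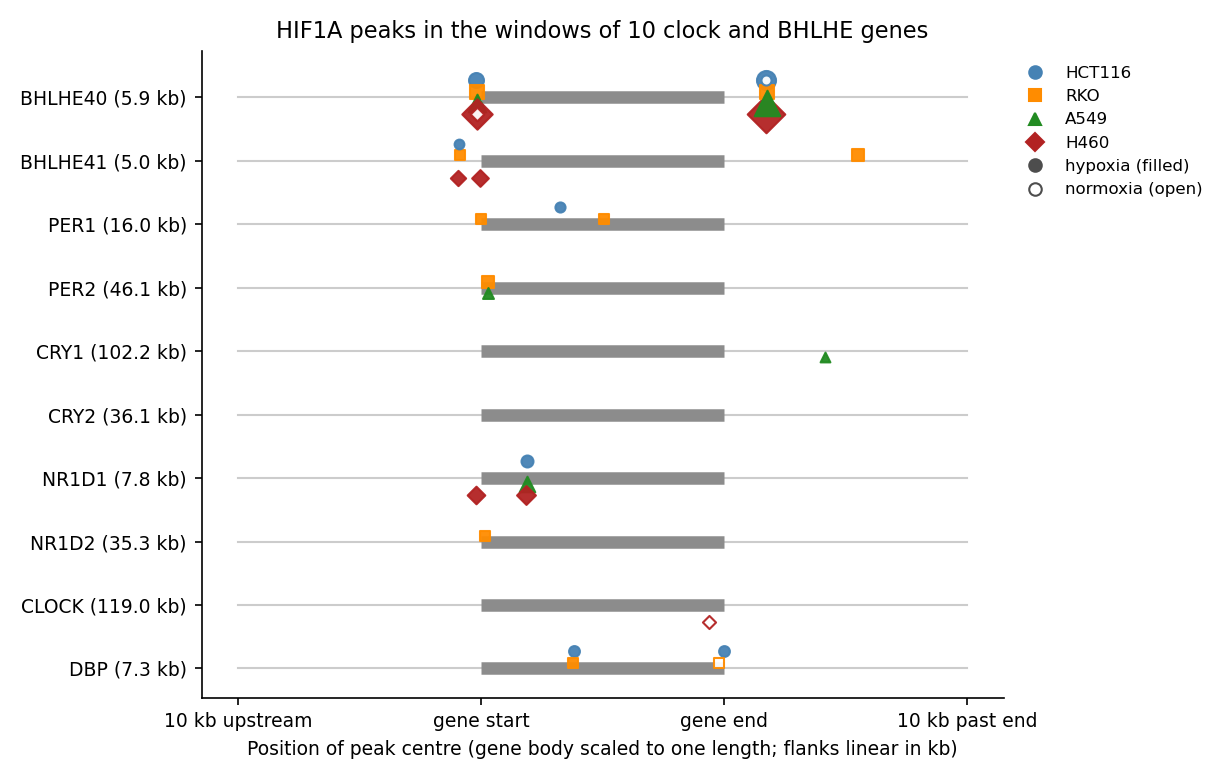
Positions of the 31 peaks at the 10 genes, each gene drawn from start to end at one length with 10 kb to either side. Symbol area grows with the normalized tag count, filled symbols are hypoxia and open symbols normoxia. Of the 27 hypoxia peaks, 16 lay within 2500 bp of the member's own gene start, and none of these were at CRY1, CLOCK or DBP. CRY2 has no peak.

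Counted by gene, 5 of the 10 members had a hypoxia peak in HCT116, against 19.9% of all protein-coding genes in that list. In RKO 6 of 10 did (28.3% of all genes), in A549 4 (21.5%) and in H460 3 (18.4%). Over the lists, 8 of 10 had a peak in at least 1 hypoxia list against 51.7% of all protein-coding genes, and 1 of 10 had one in all 4 against 3.26%. In normoxia 1 member had a peak in HCT116 (1.29% of all genes), 1 in RKO (6.93%), 2 in H460 (3.81%) and 0 in A549 (2.76%), while 3 of 10 had one in any normoxia list (13.1%). The members' shares in hypoxia were thus above those of all genes in each line, and no test of that difference was run. The members were chosen with earlier results of these data known, which limits this comparison. The median member gene was 25.7 kb long against 27.2 kb for all protein-coding genes.

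In every line more members had a peak in hypoxia than in normoxia, by 5 in RKO, by 4 in both HCT116 and A549, and by 1 in H460. The mean difference was 3.5 ± 1.73 members (SD, n = 4 lines), with p = 0.125 in a two-sided exact sign-flip permutation test, the smallest p that 4 lines allow. All 4 lines also had more peaks in hypoxia over the whole genome, and the part of list size in this difference was not tested. The colon lines had on average 2 more members with a hypoxia peak than the lung lines (p = 0.333, two-sided exact permutation of the tissue label, the smallest p possible with 2 lines against 2). Tissue and calling threshold differed together, at 6 and 7-fold over input in the colon lists and 13 and 14-fold in the lung lists. With 14-fold over input in every list the difference was 1.

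**Figure D4:**
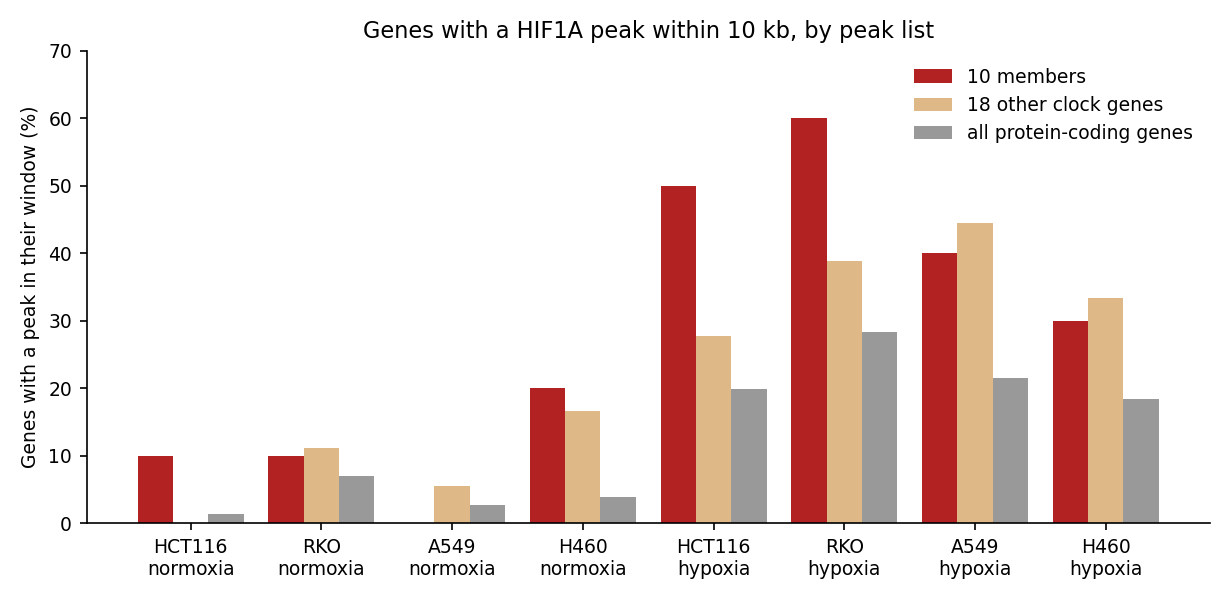
Share of genes (%) with at least 1 HIF1A peak in their window in each of the 8 lists, for the 10 members, the 18 other clock genes and all 20176 protein-coding genes. The members stand at 30 to 60% in hypoxia and 0 to 20% in normoxia.

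Ranked within their own list, member peaks in hypoxia were mostly in the upper part. Their median percentile was 87.4, and 24 of 27 were above the list median; without the BHLHE40 peaks the median was 80.8, with 16 of 19 above. The 3 exceptions were the PER1 peak of RKO named above, the CRY1 peak of A549 (43.9) and the BHLHE41 upstream peak of H460 (44.3). The 2 BHLHE40 regions were at percentile 95.8 to 99.5 in every line. Rank goes with position in these lists. Of all hypoxia peaks 26.7% lay within 2500 bp of a protein-coding gene start, against 35.5% of those above their list median. Of the member peaks 63.0% lay there, but they were taken from gene windows, so their share is not like for like with the others. The 27 peaks form 15 regions, so their ranks are not independent. Folds over input of the 27 peaks ran from 7.88 to 248 with a median of 19.7, and the highest, at the BHLHE40 promoter in H460, rested on an input listed as 0.5 tags. Folds over the local background ran from 4.10 to 33.3 with a median of 9.97.

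**Figure D5:**
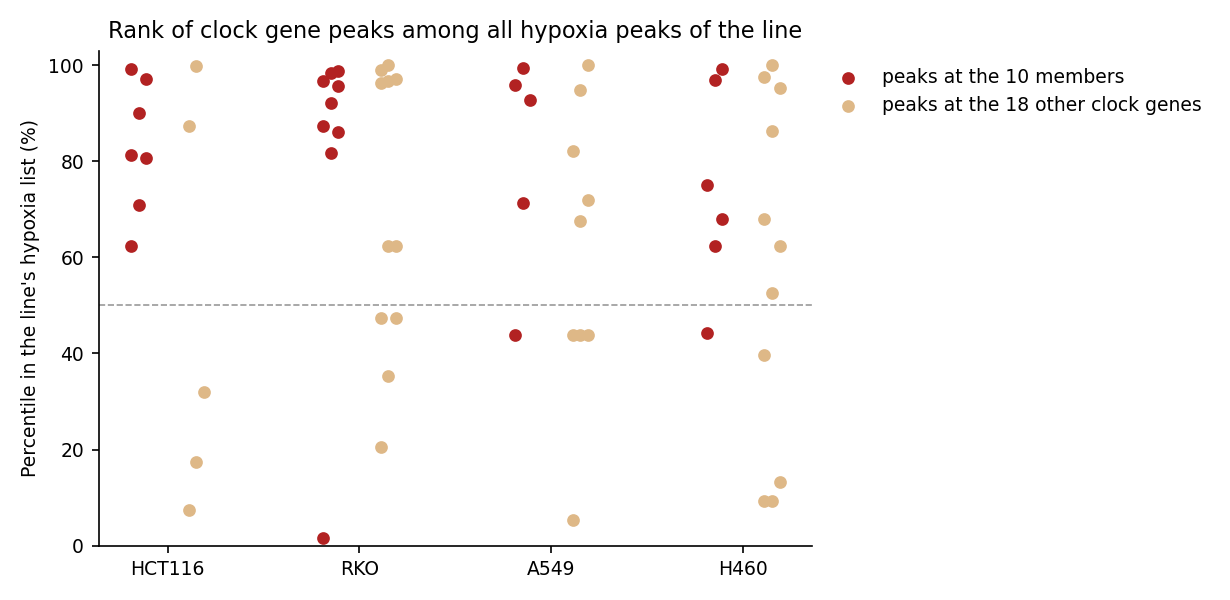
Percentile of each hypoxia peak among all hypoxia peaks of its line, for the peaks at the 10 members and at the 18 other clock genes; the dashed line marks the list median. Members lie above it in 24 of 27 cases.

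Within 200 bp at the peak centre, 25 of the 27 member peaks (92.6%, Wilson 95% interval 76.6 to 97.9%) held a core, ACGTG or GCGTG on either strand, against 50.0% of all 22452 hypoxia peaks. The 2 without a core were the RKO peak 8142 bp into PER1 and the HCT116 peak at the end of DBP. The E-box CACGTG, which contains the core, was in 13 of 27 member peaks (48.1%, 30.7 to 66.0%) against 6.50% of all hypoxia peaks. It was present, among others, at BHLHE40 (promoter), BHLHE41, PER1, NR1D2 and DBP, and in neither the PER2 nor the CRY1 peaks. Both shares depend on where peaks lie: among all hypoxia peaks within 2500 bp of a protein-coding gene start, 81.1% held a core and 11.9% an E-box, and among the 17 member peaks of that kind 17 held a core and 10 an E-box. Peaks of 1 region in different lines share their sequence, so these counts are not independent. Across lists the share of all hypoxia peaks with a core was 76.9% for H460, 65.2% for HCT116, 52.4% for A549 and 30.5% for RKO.

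By position, 16 of the 27 member peaks (59.3%) were centred within 2500 bp of the member's own gene start and 20 (74.1%) within 2500 bp of the start of one of its annotated transcripts. Of all hypoxia peaks 26.7% lay within 2500 bp of a protein-coding gene start, and 63.0% of member peaks did. These shares are not like for like. Member peaks were taken only from the windows of their genes, a rule that itself favours peaks near a gene start. The share of all hypoxia peaks was taken without a window. Peaks in the windows of all genes were not compared, so no enrichment near gene starts can be read from these shares. The nearest protein-coding gene start was the member's in 25 of 27 cases, the exceptions being the peaks by SSPN and MTERF2. The window rule favours this count as well.

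Of 18 other clock genes (BMAL1, BMAL2, NPAS2, PER3, RORA, RORB, TEF, HLF, NFIL3, CIART, CSNK1D, CSNK1E, FBXL21P, BTRC, TIMELESS, NOCT, USP2 and SIK1), 13 had a hypoxia peak in at least 1 list, 8 in at least 2 lists and 2 in all 4, and 5 had none in any of the 8 lists. Of all protein-coding genes, 51.7% had a peak in at least 1 hypoxia list and 3.26% in all 4. The windows of the 18 genes differed in length, up to 761 kb for RORA, and a longer window can hold more peaks. Of the 2 genes in all 4 lists, CSNK1D was called through its window, as given below. Both BMAL genes, the partners of CLOCK, were among those without a peak. The 36 hypoxia peaks at the 18 genes had a median list percentile of 62.3.

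NFIL3, a repressor that opposes DBP at the same DNA element, had an intron region near its start at 33.2 in H460, 23.0 in A549 and 14.1 in RKO. HCT116 had only a peak of 2.58 at the NFIL3 gene start, outside that region. CSNK1D, the kinase that phosphorylates PER proteins, had a region in all 4 lists at 208.5 in A549, 118.7 in H460, 61.1 in HCT116 and 55.5 in RKO. That region lay in an exon of SLC16A3, the lactate exporter gene next to it, whose start was the nearest, so the call at CSNK1D comes from the window. NOCT, a clock-controlled phosphatase, had a peak just upstream of its start at 8.52 in RKO, 7.48 in HCT116 and 6.67 in H460.

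RORA, an activator of BMAL1 that opposes NR1D1, had its strongest peaks in 1 intron region 637 kb into the gene, at 8.97 in RKO and 45.5 in H460. That region lay 227 bp from the start of another annotated RORA transcript. Its value in H460 was above that of the BHLHE40 promoter region in the same line (42.1). NPAS2, which can replace CLOCK, had peaks upstream of its start at 3.65 in A549 and 8.29 in H460 that did not overlap, and an intron peak of 18.8 in H460. SIK1 was at most at 5.46 in H460 and at 3.65 in A549. PER3 (2.45 in HCT116 and 3.01 in A549) and BTRC (2.70 in HCT116 and 6.23 in A549) had different peaks in each line.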

How the data were processed

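HIF1A ChIP-seq libraries of 4 cell lines in normoxia and hypoxia were analysed from 8 HOMER peak lists, in which the authors had merged the 2 replicates of each group. Per the submitters' processing notes and the methods, reads were checked with FastQC 0.11.5, aligned to GRCh37 with Bowtie2 2.2.9 and processed with SAMtools 1.3.1 and Picard 1.129, and peaks were called with HOMER 4.3 against the line's input. The methods name other releases of SAMtools and Picard than the notes. The deposited signal is the normalized tag count, per the file headers the tags per 10000000, and the deposited folds are ratios over input and over the local background. The deposited p-value columns were not used. Input libraries enter through these folds and through the peak calls, which required a set fold over input.

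Whole tags were recovered from the normalized tag count and the library total (41242090 to 81528303 tags), and their sum matched the header in all 8 lists. A peak's centre gave its gene, its annotation and the motif window of 200 bp. Hypoxia peaks that overlapped by at least 1 bp were joined into 19628 regions. Every member was named, and regions called in at least 2 lines were described one by one. Members and gene lists were chosen with earlier results of these data known. A few genes of the list of other clock genes and 1 member region's sequence are not reported here. Counts of members were compared over the 4 lines with exact permutation tests, and peaks called in both conditions with an exact conditional binomial test (Python 3.11.15, scipy 1.17.1, pandas 2.3.3, pysam 0.24.0). The binomial test was run on simulated Poisson counts of equal peak width. These held no variation between replicates, so they cannot show how the test behaves under such variation. Alternatives to the window, thresholds, overlap, motif window and start site were tried.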

Additional observations from a re-analysis of the deposited data

Results flagged for a closer look

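One result stood apart among the 4 lines. At the BHLHE40 downstream region the ratio to the common median was 1.16 in RKO and 2.51 to 2.69 in the other lines; the gap was 0.882 of the whole range, above Dixon's 95% critical value for 4 samples. This check was made on 10 sets of 4 values, and chance passes it in about 1 of 20 sets. RKO was the lowest of the 4 lines on this scale at 24.1% of the 232 common regions. No explanation was tested.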

How the results depend on the processing

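The number of members with a peak was higher in hypoxia under all 7 other settings of window, assignment and threshold, with mean differences between 2.75 (local fold of at least 6) and 5.25 (50 kb to either side). Leaving out 1 line at a time gave 3 to 4.33, with an exact sign-flip p of 0.25, the smallest that 3 lines allow. The excess of the colon lines over the lung lines was 0 with a local fold of at least 6 in every list, where RKO had a hypoxia peak at 4 members, A549 and H460 at 3 each and HCT116 at 2; under the other settings it was 1 to 2.5. Requiring 14-fold over input throughout, 1 member region remained in all 4 lists, the BHLHE40 downstream region, as the promoter region of RKO had a fold of 8.63. Dividing by the common median, a setting chosen after seeing the data like the nearest-start assignment, reduced the highest over lowest line at BHLHE40 from 3.05 to 1.37 at the promoter and from 5.94 to 2.31 downstream. Both BHLHE40 peaks called in both conditions passed the test under both alternatives to it. No paired analysis was possible because the peak lists used here hold merged replicates, and leaving out replicates was not run for the same reason; signal by replicate was not analysed here. A peak missing from a list is no measurement of absence: the lowest normalized tag counts listed were 1.94 to 2.91.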
